A study of Mus musculus with 12 samples.

Results

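The small leucine-rich proteoglycans are secreted matrix proteins built around a curved stack of leucine-rich repeats. The members described here are Dcn, Bgn, Lum, Fmod, Prelp, Omd, Ogn, Aspn and Podn, chosen by family membership. All 9 have values in all 12 libraries, among 12028 protein-coding genes in the deposited tables. Their transcripts were measured by RNA sequencing in M2-10B4 cells, an established stromal line from mouse bone marrow (C57BL/6J X C3H/HeJ), which is 1 line and therefore 1 genetic source. Cultures ran for 9 days under 4 conditions, each with 3 biological replicates. Control cells were kept untreated in regular medium, whose composition the labels do not give. DHT cells received 10 nM dihydrotestosterone, an androgen, in regular medium. The ADM group grew in adipogenic medium made with 10% charcoal-stripped serum, 2 µg/mL insulin, 1 µM of the glucocorticoid dexamethasone and 2 µM rosiglitazone, which activates the adipogenic nuclear receptor PPAR gamma. ADM+DHT cells received 10 nM DHT in that same adipogenic medium.

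In connective tissue these proteins sit on collagen fibrils, where they set fibril width and spacing, and many carry chondroitin, dermatan or keratan sulfate chains. Several also hold growth factors of the TGF-beta family in the matrix or bind cell surface receptors. Dcn, Bgn and Aspn (decorin, biglycan and asporin) are placed in class I of the family, Fmod, Lum, Prelp and Omd (fibromodulin, lumican, prolargin and osteomodulin) in class II, Ogn (osteoglycin) in class III, and Podn (podocan) in a non-canonical class. Bone marrow stroma and bone are rich in them, and they are used there as marks of matrix-forming cells.

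The labels were checked first. Adipoq, the fat cell hormone adiponectin, had a mean of 0.914 FPKM in control and 549.9 in ADM, and Fkbp5, a gene induced by steroid receptors, had means of 4.33 FPKM in control, 49.2 with DHT, 117 in ADM and 183 in ADM+DHT. FPKM, the fragments of a gene scaled by its length and by the size of the library, is a level per length, so levels of different genes can be compared. The tables hold no read counts, and sequencing depth cannot be read from them. The sum of FPKM ran from 240651 to 262947, and mitochondrially encoded transcripts made up a mean of 9.57% of it in control, 10.1% with DHT, 16.8% in ADM and 13.6% in ADM+DHT. In these bulk libraries, fewer cells that make a transcript and less of it per cell cannot be told apart. Of 10 adipocyte markers 10 were in the tables, and they summed to 26.3 to 40.1 FPKM in control, 26.6 to 27.6 in DHT, 2111 to 2222 in ADM and 699 to 774 in ADM+DHT. Of 10 marrow stroma markers 9 were in the tables, and their sum was 314 to 321 FPKM in control, 400.1 to 418 in DHT, 482 to 508 in ADM and 643 to 662 in ADM+DHT. The stroma markers did not all move one way: from control to ADM the mean of Cxcl12 went from 54.5 to 106 FPKM and that of Pdgfrb from 133 to 90.2.

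The 9 genes changed in different directions. Given alone, DHT and adipogenic medium each raised Ogn, Omd and Prelp and each lowered Dcn, Lum and Fmod. Aspn rose with DHT in either medium, and Bgn stayed within a narrow range. A gene is said to have risen, fallen or changed where limma's adjusted p, over all genes tested in that comparison, was below 0.05. Differences are on the log2 scale of FPKM with 1 added, given ± SE, a scale that understates the fold of low genes. Against control, DHT raised 4 of the 9 genes, lowered 4 and left 1 not called, where 26.9% of all 10820 genes tested were called, 12.7% higher and 14.1% lower. Adipogenic medium raised 3, lowered 3 and left 3 not called, where 61.6% of 11074 genes were called, 28.3% higher and 33.3% lower, so the 6 members called there are near that background share. In adipogenic medium DHT raised 4 of the 8 genes tested and lowered 0, with 4 not called, beside 33.5% of all genes, 17.2% higher and 16.3% lower. In the presence of DHT, adipogenic medium raised 4 of 9 and lowered 4, beside 50.0% of all genes, 23.3% higher and 26.7% lower. With both treatments 5 of 9 were above control and 3 below, beside 60.0% of all genes, 29.0% higher and 31.0% lower. Between the single treatments, ADM stood above DHT for 1 gene, Ogn, and below it for 6, beside 56.8% of all genes, 24.2% higher and 32.6% lower. Fmod had means under 1 FPKM in ADM and ADM+DHT, so against control or DHT these groups could only be called lower for it. It is counted among the lowered genes there. The median log2 difference of the members was 0.06 for DHT against control, 0.06 for ADM against control, 0.38 for ADM+DHT against ADM and -0.04 for ADM+DHT against DHT. Over all genes tested the same medians were -0.01, -0.03, 0.01 and -0.02. Comparisons with the same reference group share its 3 libraries and are not independent of each other.

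**Figure D1:**
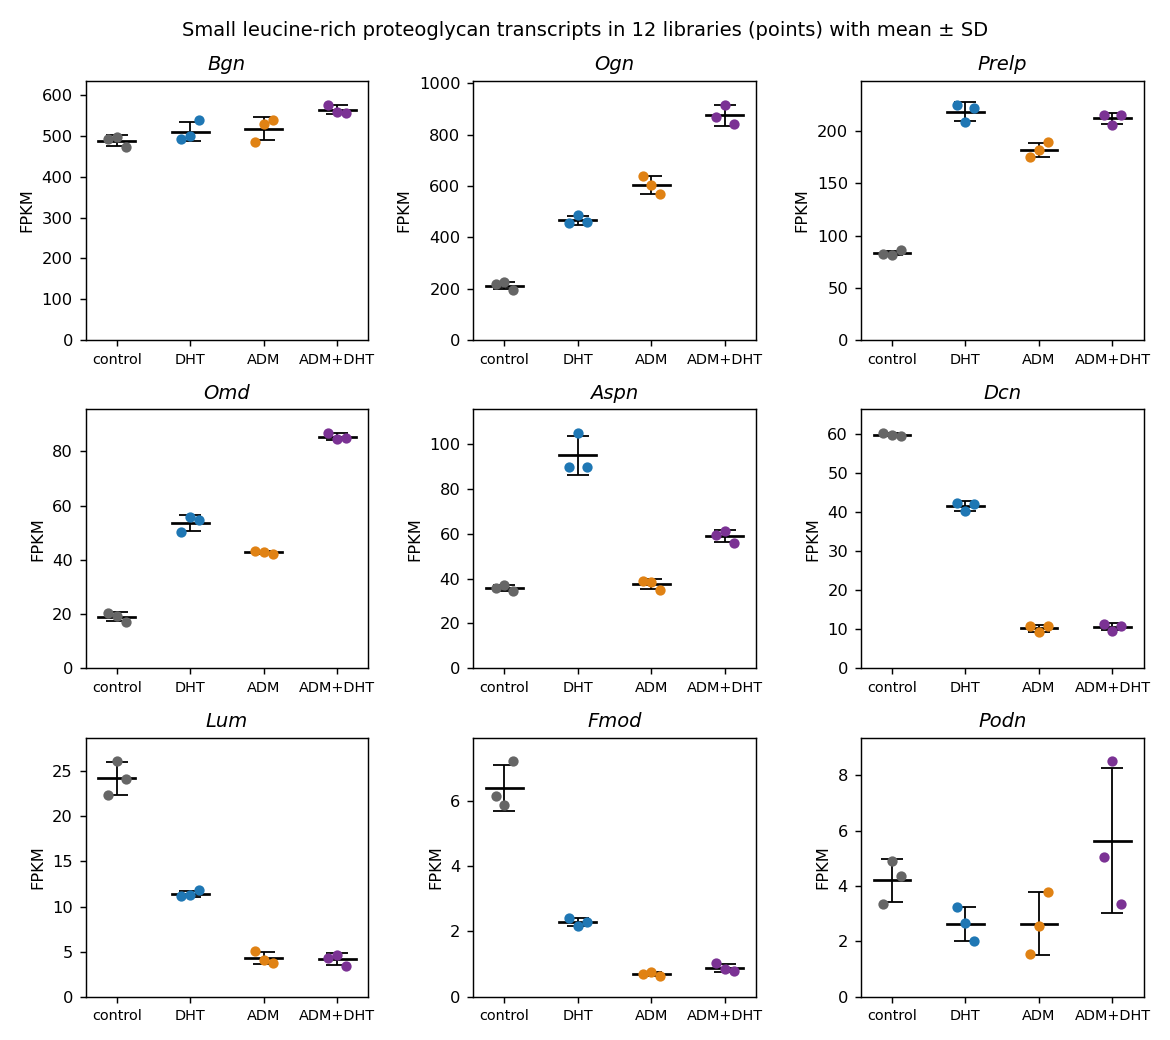
FPKM of the 9 genes in each of the 12 libraries (points, 3 per group), with the group mean as a bar and the SD as whiskers, each panel on its own linear axis from 0. Ogn and Omd were highest in ADM+DHT, Aspn in DHT and Dcn, Lum and Fmod in control, while the ADM+DHT libraries of Podn spread from 3.35 to 8.50 FPKM.

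Bgn encodes biglycan, which carries chondroitin or dermatan sulfate chains, binds collagen and signals through Tlr2 and Tlr4 when released. It lies on the X chromosome of the build GRCm38 (ENSMUSG00000031375.17, chrX:73483602-73495933, plus strand). Its level was 493, 499 and 473 FPKM in the control libraries, 494, 501 and 538 in DHT, 485, 529.6 and 539 in ADM and 577, 559 and 556 in ADM+DHT. The 3 ADM+DHT libraries lay above all others and the other groups overlapped. Bgn was the 45th gene of the control libraries by mean FPKM and the 30th of the ADM+DHT libraries. Adipogenic medium alone gave a log2 difference of 0.08 ± 0.05 (95% interval -0.03 to 0.20) and DHT alone 0.06 ± 0.04 (-0.04 to 0.16), neither past the threshold. Without ADM replicate 1 the ADM difference was 0.13 and passed (adjusted p = 0.0326), and with any 1 library left out it ran from 0.05 to 0.13 and the DHT difference from 0.03 to 0.09. Together they raised it by 0.21 ± 0.03 over control (adjusted p = 0.00119), a ratio of means of 1.16. Against DHT alone the rise in ADM+DHT was 0.14 ± 0.04 (adjusted p = 0.0174). That call ended without the intensity trend (adjusted p = 0.0609) and without DHT replicate 1, DHT replicate 2 or ADM+DHT replicate 1 (0.0534 to 0.0582). The difference between ADM+DHT and ADM was 0.12 ± 0.04 (adjusted p = 0.0658), and it passed in 3 of its alternatives, at 0.0218 to 0.0486.

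Ogn encodes osteoglycin, also called mimecan, a keratan sulfate proteoglycan first isolated from bone. It was the most abundant member after Bgn in control and the most abundant of all in the adipogenic groups. The control libraries held 217, 224 and 195 FPKM, the DHT libraries 454, 485 and 458, the ADM libraries 638, 605 and 568 and the ADM+DHT libraries 867, 917 and 839.9. No library of one group overlapped another group, and the order control, DHT, ADM, ADM+DHT held with each step past the threshold. DHT raised Ogn by 1.14 ± 0.06 over control (adjusted p = 1.84e-05) and by 0.54 ± 0.05 over ADM (adjusted p = 0.000235). Adipogenic medium raised it by 1.51 ± 0.06 over control (adjusted p = 1.06e-06) and by 0.91 ± 0.04 over DHT (adjusted p = 3.87e-06). The ADM+DHT mean was 4.13 times the control mean. Ogn ranked 143rd of all genes by mean FPKM in control and 17th in ADM+DHT.

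Omd encodes osteomodulin, or osteoadherin, a keratan sulfate proteoglycan of mineralized bone matrix that binds osteoblasts through an integrin. Its control libraries stood at 20.4, 19.5 and 17.2 FPKM, its DHT libraries at 50.3, 55.8 and 54.8, its ADM libraries at 43.4, 42.8 and 42.1, and its ADM+DHT libraries at 86.8, 84.7 and 84.9. The 4 groups did not overlap, and ADM lay below DHT, the reverse of their order for Ogn. DHT raised Omd by 1.45 ± 0.07 in regular medium (adjusted p = 1.59e-05), a ratio of 2.82, and by 0.98 ± 0.03 in adipogenic medium (adjusted p = 2.17e-06), a ratio of 2.00. The medium raised it by 1.13 ± 0.06 without DHT (adjusted p = 4.32e-06) and by 0.66 ± 0.04 with it (adjusted p = 2.20e-05). The summed osteoblast markers were lower in every treated group. Of 10 such markers 8 were in the tables, with sums of 2213 to 2281 FPKM in control, 1847 to 1915 in DHT, 1088 to 1142 in ADM and 1503 to 1525 in ADM+DHT. Col1a1 and Spp1 make up most of these sums, and with DHT they went opposite ways. Col1a1 libraries held 1468 to 1505 FPKM in control and 1539 to 1620 in DHT, and Spp1 libraries 716 to 782 and 283 to 306. Of those tested, 1 of 7 rose and 4 fell with DHT, beside 12.7% and 14.1% of all genes, and 0 of 6 rose and 6 fell with adipogenic medium, beside 28.3% and 33.3%. Bglap, Bglap2 and Phex entered the comparison of ADM through control alone, with ADM means under 1 FPKM, so they could enter only as lower. Ibsp, at 0 to 0.0561 FPKM in control and 0.493 to 1.04 in ADM, was too low for a test. With DHT, Alpl entered through the DHT group alone and Phex through control alone. In adipogenic medium DHT raised 3 of the 3 tested, Col1a1, Spp1 and Runx2, beside 17.2% of all genes. The rest of the 8, with means under 1 FPKM in both groups or without values in ADM, were not tested there. Of these, Phex libraries held 0.696 to 0.997 FPKM in ADM and 0.128 to 0.203 in ADM+DHT. Those of Ibsp held 0.493 to 1.04 and 0.193 to 0.437, and those of Bglap and Bglap2 overlapped.

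Aspn encodes asporin, a class I protein with a run of aspartates and no typical glycosaminoglycan chain, which binds collagen and restrains TGF-beta signalling. It had 35.8, 36.9 and 34.6 FPKM in control, 89.8, 105 and 89.9 in DHT, 38.9, 38.5 and 35.1 in ADM, and 59.4, 61.0 and 55.9 in ADM+DHT. Only the control and ADM libraries overlapped, with the DHT group above ADM+DHT and that group above the other two. DHT raised Aspn by 1.38 ± 0.07 in regular medium (adjusted p = 1.50e-05) and by 0.64 ± 0.05 in adipogenic medium (adjusted p = 0.000144). Adipogenic medium alone gave 0.06 ± 0.05 (95% interval -0.06 to 0.19), not past the threshold. With DHT present Aspn fell by 0.68 ± 0.07 in the medium (adjusted p = 0.000155).

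Prelp encodes prolargin, which lacks glycosaminoglycan chains, carries a basic amino-terminal region that binds heparan sulfate, and links basement membrane to collagen. The control libraries held 82.6, 81.8 and 85.8 FPKM, the DHT libraries 226, 209 and 222, the ADM libraries 175, 182 and 189, and the ADM+DHT libraries 215, 206 and 216. All treated libraries lay above control, and DHT and ADM+DHT overlapped. Prelp rose by 1.38 ± 0.04 with DHT in regular medium (adjusted p = 3.18e-06) and by 1.12 ± 0.04 with adipogenic medium (adjusted p = 5.47e-07). In adipogenic medium DHT added 0.22 ± 0.04 (adjusted p = 0.00398), a ratio of 1.17. Between ADM+DHT and DHT the difference was -0.04 ± 0.04 (95% interval -0.13 to 0.05), which did not pass.

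Dcn encodes decorin, the collagen-binding proteoglycan that also holds TGF-beta and binds the receptors encoded by Egfr and Met. Its level was 60.2, 59.7 and 59.4 FPKM in control, 42.4, 40.2 and 42.0 in DHT, 10.8, 9.25 and 10.7 in ADM and 11.4, 9.67 and 10.9 in ADM+DHT. The 2 adipogenic groups overlapped each other and lay far below the others. With adipogenic medium Dcn fell by 2.43 ± 0.06 (adjusted p = 1.04e-07), to 0.172 of the control mean, and in the presence of DHT it fell by 1.87 ± 0.06 (adjusted p = 1.01e-06). With DHT in regular medium it fell by 0.51 ± 0.04 (adjusted p = 9.99e-05). In adipogenic medium the DHT difference was 0.05 ± 0.08 (95% interval -0.15 to 0.25), not past the threshold. Dcn was the 678th gene by mean FPKM in control and the 4310th in ADM.

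Lum encodes lumican, the keratan sulfate proteoglycan known for the order of collagen fibrils in cornea and skin. It stood at 22.4, 26.1 and 24.2 FPKM in control, 11.1, 11.3 and 11.8 in DHT, 5.09, 4.11 and 3.79 in ADM and 4.36, 4.69 and 3.43 in ADM+DHT. As for Dcn, the 2 adipogenic groups overlapped and control was highest. Lum fell by 1.02 ± 0.06 with DHT (adjusted p = 5.02e-05) and fell by 2.25 ± 0.10 with adipogenic medium (adjusted p = 1.36e-06). With DHT present it fell by 1.27 ± 0.10 in the medium (adjusted p = 4.11e-05). The DHT difference in adipogenic medium was -0.05 ± 0.13 (95% interval -0.35 to 0.25), not past the threshold.

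Fmod encodes fibromodulin, a tendon and cartilage protein that shares a collagen site with lumican and brings the cross-linking enzyme of the gene Lox to the fibril. The control libraries held 6.14, 5.86 and 7.21 FPKM, the DHT libraries 2.40, 2.17 and 2.31, the ADM libraries 0.703, 0.747 and 0.635 and the ADM+DHT libraries 1.02, 0.867 and 0.786. Every group was apart from the next, and both adipogenic groups had means under 1 FPKM. Fmod fell by 1.17 ± 0.09 with DHT (adjusted p = 0.000109) and fell by 2.12 ± 0.09 with adipogenic medium (adjusted p = 9.23e-07). In the presence of DHT it fell by 0.80 ± 0.08 in the medium (adjusted p = 0.000138). In both comparisons of media Fmod entered through the group in regular medium alone, so it could enter only as lower. ADM+DHT was not tested against ADM for this gene, since neither mean reached the 1 FPKM that a test required.

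Tendon and cartilage markers also changed beside Dcn, Lum and Fmod. Of 5 tendon markers 4 were in the tables, with sums of 103 to 112 FPKM in control, 122 to 131 in DHT, 27.2 to 28.0 in ADM and 47.7 to 55.8 in ADM+DHT. Adipogenic medium lowered 3 of the 4 tested and raised 0, beside 33.3% and 28.3% of all genes, with Tnmd at -4.30 ± 0.06 and Scx at -2.62 ± 0.11. Scx and Mkx entered that comparison through control alone, with ADM means under 1 FPKM, so they could enter only as lower. DHT in regular medium raised 2 of these 4 and lowered 1, beside 12.7% and 14.1% of all genes. Tnmd, which makes up most of the sum there, rose from a mean of 74.0 FPKM to 92.0, and Scx fell by 0.69 ± 0.20 on the log2 scale (adjusted p = 0.0395). Of 8 chondrocyte markers 5 were in the tables, and their sums were 55.8 to 63.4 FPKM in control, 63.5 to 69.6 in DHT, 24.8 to 26.6 in ADM and 31.4 to 32.3 in ADM+DHT. DHT in regular medium raised 2 of the 4 tested and lowered 1, beside 12.7% and 14.1% of all genes. Col2a1 libraries held 24.7 to 27.2 FPKM in control and 16.7 to 17.7 in DHT, and Sox9 libraries 28.4 to 33.4 and 41.6 to 46.3. Adipogenic medium lowered 2 of 4, Col2a1 and Sox9, and raised 1, Comp, which was near 1 FPKM, beside 33.3% and 28.3%. Comp entered through ADM alone, with a control mean under 1 FPKM, so it could enter only as higher. Macrophage markers (2 of 6 in the tables) summed to at most 10.3 FPKM and skeletal muscle markers (3 of 6) to at most 5.42, and the 1 endothelial marker of 6 in the tables, Emcn, had at most 1.26. Whether any of these cell states has a part in the changes of the 9 genes was not tested.

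Podn encodes podocan, a collagen-binding protein described in kidney and in vascular smooth muscle, where it restrains growth. It was low and its replicates were spread: 3.36, 4.90 and 4.36 FPKM in control, 3.24, 2.67 and 2.00 in DHT, 1.53, 2.56 and 3.80 in ADM and 5.05, 8.50 and 3.35 in ADM+DHT. The ADM+DHT libraries overlapped control and ADM, and their SD was 46.6% of the mean. DHT against control gave -0.52 ± 0.16 (adjusted p = 0.0466), a call that ended in 9 of 14 alternatives (adjusted p up to 0.197), among them those without control replicate 2, control replicate 3, DHT replicate 2 or DHT replicate 3 (0.101 to 0.122). ADM+DHT against DHT gave 0.81 ± 0.28 (adjusted p = 0.0447), which ended without the intensity trend (0.0539) and without any 1 of the 3 DHT replicates or ADM+DHT replicate 1 or 2 (0.0574 to 0.130). ADM against control at -0.56 ± 0.23 (adjusted p = 0.0688) and ADM+DHT against ADM at 0.84 ± 0.32 (adjusted p = 0.0866) did not pass. With 1 library left out the first ran from -0.78 to -0.32 and passed without ADM replicate 3 (adjusted p = 0.0126), and the second ran from 0.55 to 1.11 and passed without ADM+DHT replicate 3 (0.0411). The first also passed with the replicate block, and the second when fitted on all 12 libraries (0.0359). In the authors' deposited table Podn had q-values of 0.168 for DHT against control and 0.161 for ADM+DHT against DHT.

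**Figure D2:**
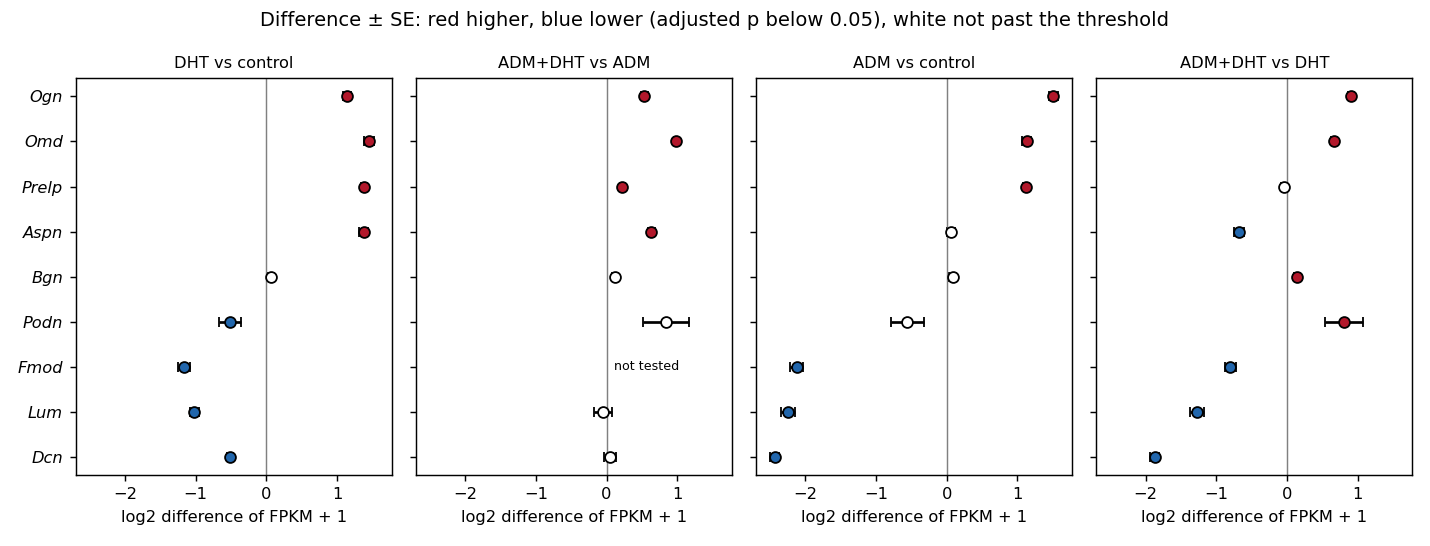
Log2 difference of FPKM + 1 (horizontal axis, ± SE) for the 9 genes in 4 comparisons of 6 libraries each, with red points for genes that rose, blue for genes that fell and white for genes not past the threshold. Dcn, Lum and Fmod lie left of 0 in 3 panels, and in ADM+DHT against ADM the genes past the threshold are Ogn, Omd, Prelp and Aspn, all to the right.

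The interaction of DHT and medium, tested over all 12 libraries, was called for 8 of the 9 genes. Of all 11152 genes tested, 25.4% were called. Fmod counts among these 8, although its sign was fixed by its low level, as given below. The interaction is the DHT difference in adipogenic medium minus that in regular medium. It was negative for the 4 genes that DHT raised, at -1.16 ± 0.06 for Prelp (adjusted p = 7.86e-08), -0.74 ± 0.09 for Aspn (0.000102), -0.60 ± 0.08 for Ogn (0.000246) and -0.47 ± 0.08 for Omd (0.00120). It was positive for the 4 that DHT lowered, at 1.32 ± 0.11 for Fmod (adjusted p = 6.56e-06), 0.97 ± 0.15 for Lum (0.000549), 0.56 ± 0.09 for Dcn (0.000863) and 1.36 ± 0.40 for Podn (0.0264). The DHT difference in regular medium is subtracted in the interaction, so genes sorted by its sign lean to the opposite sign. The split of signs is therefore no separate result. The Podn call ended without control replicate 2, control replicate 3, DHT replicate 3 or ADM replicate 1 (adjusted p 0.0539 to 0.0631). For Bgn it was 0.06 ± 0.06 (95% interval -0.08 to 0.20) and did not pass. In numbers, the separate DHT and medium differences of Ogn add up to 2.64, while ADM+DHT stood 2.04 ± 0.06 above control. For Prelp the sum is 2.50 and the measured difference 1.34 ± 0.04, for Omd 2.58 and 2.11 ± 0.06, and for Dcn -2.95 and -2.38 ± 0.06. For Fmod the sum is -3.29, a fall that its control mean of 6.40 FPKM could not make on this scale even at 0 FPKM. The positive sign of the Fmod interaction was thus fixed by its low level and is no result, and both its adipogenic means were under 1 FPKM.

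The members' joint level rose while its composition shifted from Bgn to Ogn. Summed over the 9 transcripts, the mean ± SD over 3 libraries was 933 ± 29.1 FPKM in control, 1402 ± 26.0 with DHT, 1402 ± 11.2 in ADM and 1817 ± 41.3 in ADM+DHT. As a share of all FPKM this was 0.380% ± 0.017, 0.579% ± 0.008, 0.537% ± 0.007 and 0.730% ± 0.012. Bgn made up 52.4% ± 0.24 of the sum in control and 31.1% ± 0.75 in ADM+DHT, and Ogn 22.7% ± 0.94 and 48.1% ± 1.21. Decorin transcripts went from 6.41% ± 0.18 of the sum in control to 2.97% ± 0.12 with DHT, 0.733% ± 0.068 in ADM and 0.587% ± 0.057 in ADM+DHT. DHT and ADM libraries thus had near-equal sums, mostly of the same members in partly different shares. Bgn made up 36.4% ± 1.28 of the sum in DHT and 37.0% ± 2.05 in ADM, Ogn 33.2% ± 1.08 and 43.1% ± 2.42, and Aspn 6.76% ± 0.58 and 2.67% ± 0.14.

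**Figure D3:**
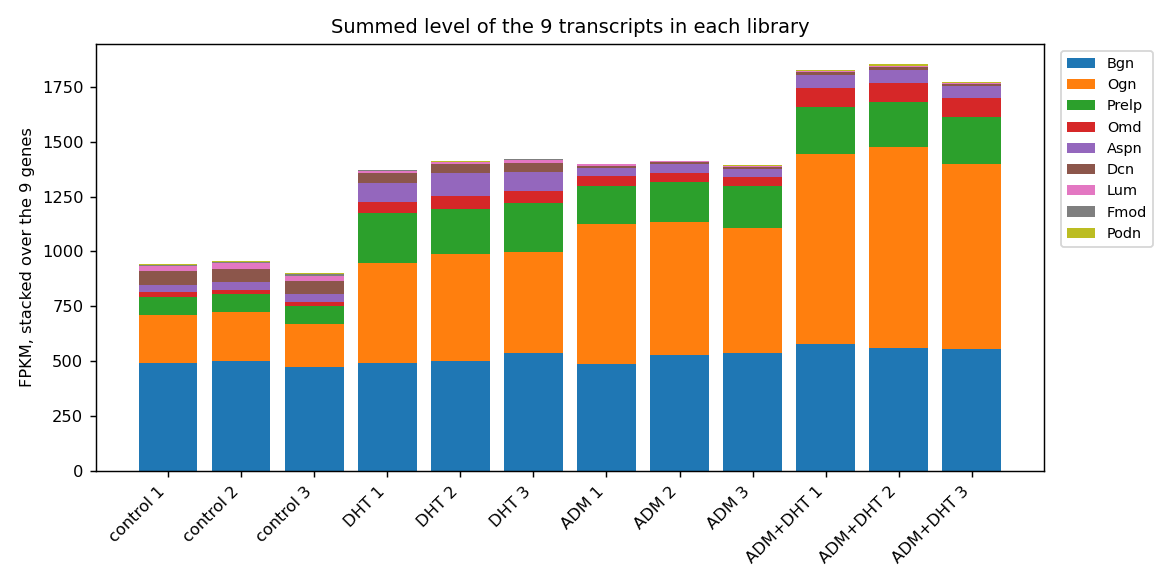
FPKM of the 9 genes stacked for each of the 12 libraries. The total is lowest in the control libraries and highest in ADM+DHT, with DHT and ADM near 1402 FPKM, and the growth is mostly in the Ogn segment while the Bgn segment changes little.

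Most of the 9 genes lie in short runs on the chromosomes, and the runs differed in how they moved. Aspn (ENSMUSG00000021388.14, chr13:49544443-49567565), Omd (ENSMUSG00000048368.9, chr13:49582462-49592822) and Ogn (ENSMUSG00000021390.6, chr13:49608046-49624501) follow each other on the plus strand with gaps of 14.9 and 15.22 kb. All 3 rose with DHT in both media. Under adipogenic medium alone Omd and Ogn rose while Aspn, the first of the row, did not pass. Ecm2, a further leucine-rich repeat matrix gene that ends 11.65 kb before Aspn, rose by 0.52 ± 0.08 with DHT (adjusted p = 0.00260), 0.40 ± 0.08 with adipogenic medium (0.00367) and 0.23 ± 0.06 with DHT in that medium (0.0208), at means of 6.58 to 10.7 FPKM. Nol8, a nucleolar protein gene 28.58 kb after Ogn, fell by 0.36 ± 0.08 with adipogenic medium (adjusted p = 0.00660) and did not pass with DHT. All of Aspn, Omd and Ogn lies inside Cenpp, a centromere protein gene on the opposite strand. Cenpp had differences of -0.47 ± 0.09 with DHT and -1.09 ± 0.11 with adipogenic medium, at means of 0.988 to 4.11 FPKM. The libraries were strand-specific, but no source used here states whether reads were assigned by strand. Whether reads of Cenpp enter the values of Aspn, Omd and Ogn was not tested.

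The start regions of these 3 neighbours are shown because the genes rose together with DHT, each from 250 bases before to 50 bases after the start given by RefSeq (GRCm38.p6), on the plus strand. The windows are chr13:49544193-49544492 for Aspn, chr13:49582212-49582511 for Omd and chr13:49607765-49608064 for Ogn. Capitals mark the letters TATAAA on either strand.
Aspn: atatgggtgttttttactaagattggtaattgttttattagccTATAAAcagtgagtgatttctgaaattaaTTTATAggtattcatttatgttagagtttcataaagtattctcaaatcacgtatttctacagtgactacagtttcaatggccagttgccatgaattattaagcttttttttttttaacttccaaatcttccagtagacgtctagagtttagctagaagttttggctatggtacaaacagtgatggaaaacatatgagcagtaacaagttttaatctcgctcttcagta
Omd: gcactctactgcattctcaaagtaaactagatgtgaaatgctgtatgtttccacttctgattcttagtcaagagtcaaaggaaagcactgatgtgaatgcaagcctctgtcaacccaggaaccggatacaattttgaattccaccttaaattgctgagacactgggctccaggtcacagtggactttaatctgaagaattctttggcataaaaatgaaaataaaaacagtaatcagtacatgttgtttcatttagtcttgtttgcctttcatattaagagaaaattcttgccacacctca
Ogn: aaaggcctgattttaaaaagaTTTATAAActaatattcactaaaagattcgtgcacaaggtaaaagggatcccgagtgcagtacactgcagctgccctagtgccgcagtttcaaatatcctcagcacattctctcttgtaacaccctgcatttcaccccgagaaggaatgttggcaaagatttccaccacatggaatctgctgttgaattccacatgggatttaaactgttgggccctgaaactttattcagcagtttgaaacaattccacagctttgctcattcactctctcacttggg
The windows were AT-rich, with 31.0% G and C for Aspn, 37.7% for Omd and 42.3% for Ogn, against a median of 52.7% over 32851 RefSeq windows of that length and a lower quartile of 45.7%. TATAAA occurs in Aspn at positions -207 to -202 from the start and, on the other strand, at -178 to -173. In Ogn it occurs at -227 to -222 and, on the other strand and overlapping, at -229 to -224. It is in 13.6% of all windows. A search on both strands for the steroid receptor letters AGAACA (19.0% of all windows), the full steroid receptor palindrome (0.00913%), the PPAR direct repeat (0.0396%), the C/EBP letters TTGCNNAA (10.8%) and the AP-1 letters TGANTCA (7.81%) found no match in these 3 windows. A match or its lack describes only these letters in these windows.

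On chromosome 1, Prelp (ENSMUSG00000041577.5, chr1:133910304-133921414, minus strand) and Fmod (ENSMUSG00000041559.7, chr1:134037254-134048277, plus strand) lie 115.84 kb apart and moved in opposite directions. DHT raised Prelp and lowered Fmod, and so did adipogenic medium. Optc, an opticin gene of class III that begins 2.31 kb beyond Prelp, was low, with means of 0.313 FPKM in control, 0.908 with DHT, 0.864 in ADM and 1.07 in ADM+DHT. Btg2, an antiproliferative gene 26.89 kb after Fmod, rose by 0.35 ± 0.10 with DHT (adjusted p = 0.0443) and by 0.55 ± 0.08 with adipogenic medium (0.000877). An antisense transcript, Gm15851, overlaps 4519 bases of Prelp and was not analysed here. The start windows of the pair are shown because the 2 genes diverged, read 5′ to 3′ on each gene's own strand (chr1:133921352-133921651 on the minus strand for Prelp, chr1:134037004-134037303 on the plus strand for Fmod), with capitals for TTGCNNAA.
Prelp: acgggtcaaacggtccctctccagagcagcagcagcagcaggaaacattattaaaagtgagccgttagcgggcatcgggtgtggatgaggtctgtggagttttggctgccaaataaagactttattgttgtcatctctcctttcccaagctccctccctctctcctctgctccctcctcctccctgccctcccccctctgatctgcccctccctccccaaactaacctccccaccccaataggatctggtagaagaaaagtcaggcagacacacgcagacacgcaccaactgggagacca
Fmod: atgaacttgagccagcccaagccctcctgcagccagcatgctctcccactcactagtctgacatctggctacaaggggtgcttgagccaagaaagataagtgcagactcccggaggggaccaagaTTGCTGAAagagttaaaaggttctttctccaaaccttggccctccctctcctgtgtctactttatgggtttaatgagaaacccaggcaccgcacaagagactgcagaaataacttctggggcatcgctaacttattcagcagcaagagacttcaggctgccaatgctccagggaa
The Fmod window has TTGCNNAA at positions -125 to -118 from the start, and the Prelp window has none of the letters searched. Their G and C shares were 55.3% for Prelp and 51.0% for Fmod, both within the quartiles of all windows.

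On chromosome 10, Dcn (ENSMUSG00000019929.16, chr10:97479609-97518143) and Lum (ENSMUSG00000036446.5, chr10:97565128-97572703) lie 46.98 kb apart on the plus strand and fell together. The next genes on that side are family members as well. Kera, the keratocan gene 34.18 kb after Lum, had group means of 0.298 to 1.02 FPKM, and Epyc, the epiphycan gene beyond it, 0.0581 to 0.827 FPKM with 3 adipogenic libraries listed at 0. Kera did not pass in DHT against control at 0.20 ± 0.14 (adjusted p = 0.330).

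**Figure D4:**
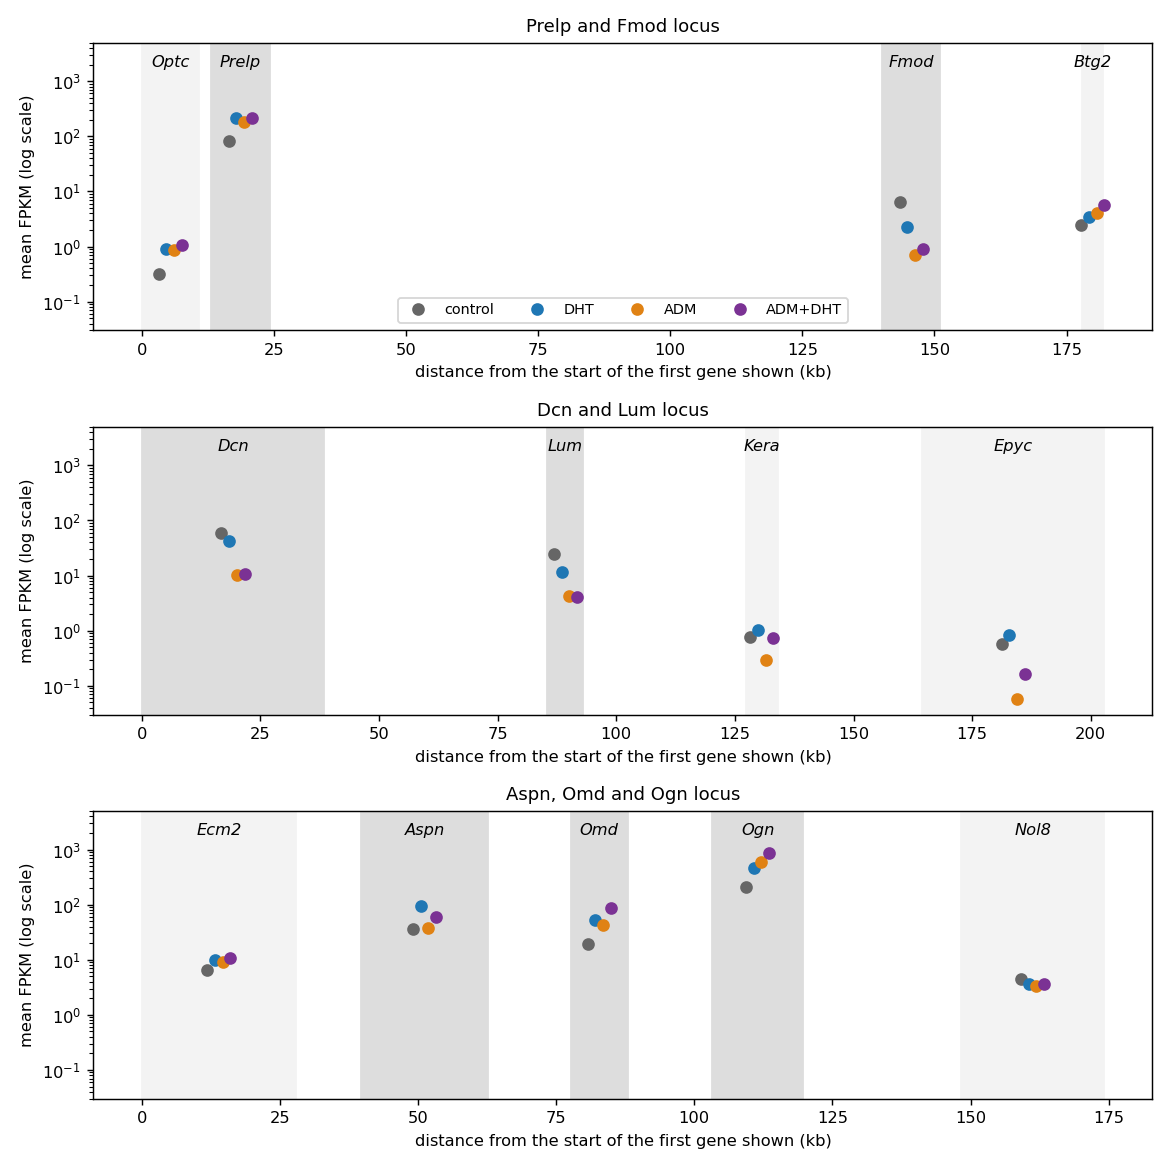
Mean FPKM (vertical log axis, 4 group means per gene, n = 3 each) of family genes (dark bands for the 9 genes) and their neighbours along 3 loci, by distance in kb from the start of the first gene shown. The dots of Aspn, Omd and Ogn lie higher with DHT than in control, those of Dcn and Lum lie lower, and Prelp and Fmod go opposite ways. Cenpp, which spans the lower panel on the other strand, is not drawn.

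Podn stands alone on chromosome 4 (ENSMUSG00000028600.15, chr4:108014791-108096445, minus strand), where 52607 bases of its span overlap Scp2, a sterol carrier gene on the same strand. Reads in the shared span may have been divided between them in a way the tables do not show. Scp2 rose by 2.00 ± 0.04 with adipogenic medium and fell by 0.86 ± 0.04 when DHT was added to it, while the Podn differences in these comparisons had the opposite signs and did not pass. The Podn values are uncertain for that reason too. Podnl1, the podocan-like gene of the family, had 4.42 FPKM in control and 0.803 in ADM, a fall of 1.61 ± 0.15 (adjusted p = 6.01e-05). Tsku, a further family member that was tested, did not pass in any of the 4 deposited comparisons. Its control libraries ran from 1.29 to 4.90 FPKM.

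Group patterns were compared by the root mean square distance between the 4 centred group means of log2(FPKM + 1). Among the 9 genes, the nearest pairs were Lum and Fmod at 0.17, Omd and Ogn at 0.25 and Dcn and Lum at 0.27, and the farthest was Dcn and Ogn at 1.79. Among 7680 other genes with at least 5 FPKM in a group, the 2 nearest to Dcn were Diaph3 at 0.06 and Kif4 at 0.07, to Lum Spon2 at 0.04 and Pstpip2 at 0.09, and to Fmod Acpp at 0.05 and Ly6a at 0.08. Those nearest to Ogn were Map3k6 at 0.09 and Tppp3 at 0.12, and those nearest to Omd were Tspan18 at 0.07 and Synpr at 0.11. Prelp had no neighbour nearer than Nrbp2 at 0.15 and Pcdhb12 at 0.17, nor Aspn one nearer than Adgrg2 at 0.15 and S100b at 0.19. For Podn they were Mmp11 at 0.09 and Gas2l1 at 0.11, and for Bgn, whose pattern is almost flat, Dctn4 and Smg8 with distances under 0.01. These distances rest on 4 group means and are a description.

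The counts of the related gene lists stand beside the same shares of all genes tested: 28.3% higher and 33.3% lower with adipogenic medium, and 17.2% higher and 16.3% lower with DHT in that medium. No list was tested as a set. A gene with a mean under 1 FPKM in 1 compared group, as Chst15 in control, entered through the other group. The direction of such a gene was set by the filter. Of 24 chondroitin and dermatan sulfate synthesis genes tested, adipogenic medium raised 7 and lowered 7 (median log2 -0.12), and the 14 called are near the 61.6% of all genes called. Of 24 in adipogenic medium DHT raised 4 and lowered 1 (median 0.12), beside 33.5% of all genes called. Chst11, a chondroitin sulfotransferase gene, went from 2.08 ± 0.44 FPKM in control to 11.4 ± 0.78 in DHT and 18.9 ± 1.28 in ADM, and Chst15, which adds a further sulfate, from 0.383 ± 0.053 in control to 5.32 ± 1.25 in ADM. Csgalnact1, whose enzyme starts chondroitin chains, fell by 1.12 ± 0.07 with adipogenic medium and fell by 0.66 ± 0.08 more with DHT in it. Papss2, which makes the sulfate donor, and Chst3 rose by 1.37 ± 0.05 and 1.29 ± 0.09 when DHT was added to adipogenic medium. Of 9 genes for keratan sulfate chains and tyrosine sulfation, adipogenic medium raised 4 and lowered 1 (median -0.01), and DHT in that medium raised 5 and lowered 1 (median 0.40), beside the same 61.6% and 33.5%. B4galt1, a galactosyltransferase gene, rose by 0.99 ± 0.05 with the medium and by 0.50 ± 0.04 with DHT in it, while Chst1, the keratan sulfate sulfotransferase gene, had differences of -1.36 ± 0.06 and -0.47 ± 0.10.

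The family binds collagen fibrils. Of 15 fibrillar and associated collagen genes tested, adipogenic medium raised 5 and lowered 9 (median log2 -0.59), beside 28.3% and 33.3% of all genes. DHT in that medium raised 7 and lowered 2 (median 0.12), beside 17.2% and 16.3%. Col2a1, the cartilage collagen gene, fell by 2.30 ± 0.06 and Col5a2, which limits fibril width, fell by 1.35 ± 0.04 with adipogenic medium, whereas Col12a1, a fibril-associated collagen gene, rose by 1.98 ± 0.06. Added DHT raised Col5a2 by 0.75 ± 0.03, Col12a1 by 0.81 ± 0.03 and Col1a2 by 0.57 ± 0.03 over ADM. Col12a1 had means of 25.8 FPKM in control, 86.8 with DHT, 105 in ADM and 184 in ADM+DHT, the same order as Ogn.

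Of 13 proteases that process or degrade family members, adipogenic medium raised 2 and lowered 11 (median log2 -0.49), beside 28.3% and 33.3% of all genes. DHT in that medium raised 7 of 11 and lowered 1 (median 0.44), beside 17.2% and 16.3%. The proteases tested in the first comparison alone had ADM means under 1 FPKM. They entered through control and could enter only as lower. The collagenase gene Mmp13 fell by 3.16 ± 0.08 with the medium, from a mean of 122 FPKM to 12.7, and it was 8.42 in DHT. Mmp2, a gelatinase gene, fell by 0.79 ± 0.03 with the medium and rose by 0.76 ± 0.03 with DHT in it, and Adamts1 rose by 1.02 ± 0.04 with the medium. Of 18 other proteoglycan genes tested, adipogenic medium raised 4 and lowered 12 (median -0.61), and of 15 in adipogenic medium DHT raised 8 and lowered 0 (median 0.25), beside those same shares. Here too, genes tested in the first comparison alone could enter only as lower. Tgfbr3, the betaglycan gene, rose by 1.42 ± 0.07 with the medium, and the syndecan gene Sdc3 fell by 1.04 ± 0.05, while Vcan, the versican gene, rose by 0.60 ± 0.05 and Gpc1, a glypican gene, by 0.62 ± 0.04 with DHT in adipogenic medium.

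Among 17 ligands and receptors that members of the family are known to bind, adipogenic medium raised 3 and lowered 11 (median log2 -0.65), beside 28.3% and 33.3% of all genes. Of 16 tested in that medium DHT raised 9 and lowered 2 (median 0.36), beside 17.2% and 16.3%. A gene tested in the first comparison alone had an ADM mean under 1 FPKM and could enter only as lower. Egfr, a decorin receptor gene, rose by 2.17 ± 0.05 with the medium, from a mean of 13.4 FPKM to 64.1, while Dcn fell. Lox, whose enzyme fibromodulin binds, rose by 0.66 ± 0.03 with the medium and by 0.79 ± 0.03 with DHT in it, while Fmod fell with the medium. Fbn1, the fibrillin gene, fell by 1.43 ± 0.05 with the medium. The ligand genes Tgfb2 and Tgfb3 rose by 0.84 ± 0.05 and 0.83 ± 0.04 with DHT in adipogenic medium.

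**Figure D5:**
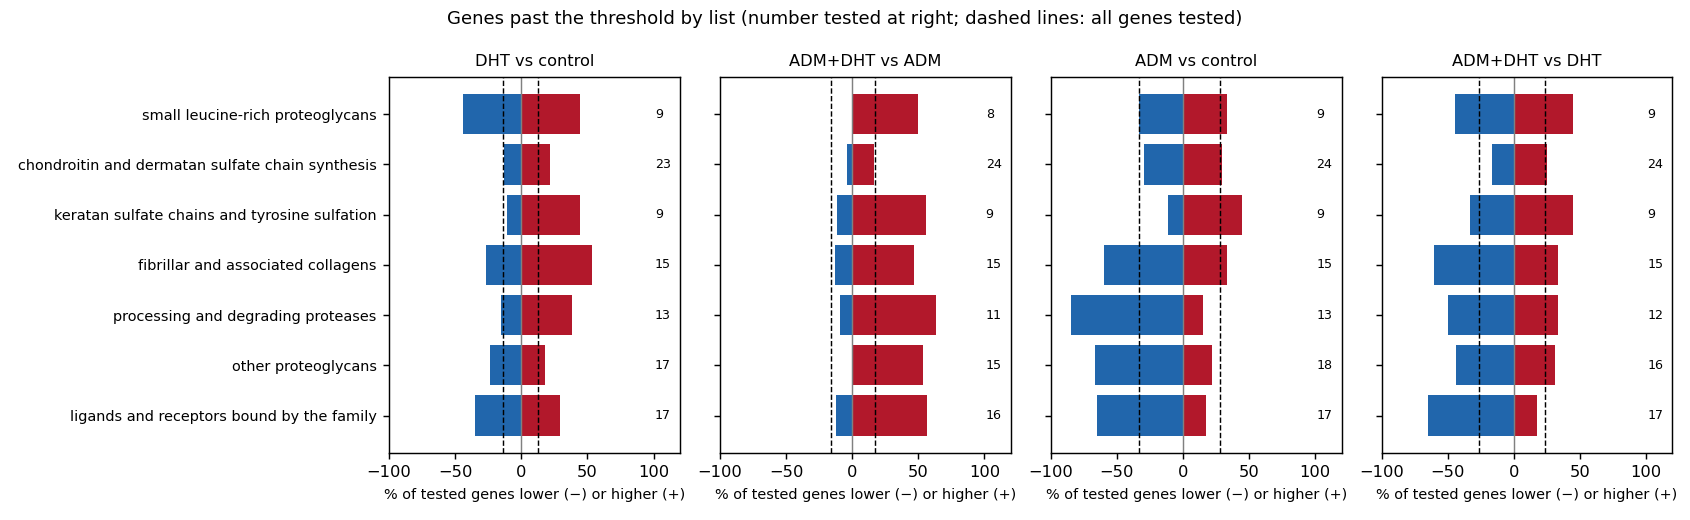
Percent of the tested genes of each list that rose (red, right) or fell (blue, left) in 4 comparisons, with the number tested at the right of each bar and dashed lines for the shares over all genes tested. The bars of the 9 proteoglycans are about as long to the left as to the right except in ADM+DHT against ADM, where 4 of 8 rose and 0 fell.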

How the data were processed

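Per the labels' protocols, poly(A)-selected RNA was made into strand-specific libraries and sequenced in paired ends. Tools in the submitters' processing notes are HISAT2, StringTie, cutadapt and FastQC, without versions or roles, and the build is GRCm38. FPKM per library came from 4 deposited tables of paired groups, per the file headers. In the deposited tables the group columns equal the mean of log2(FPKM + 1). The authors' log2 fold change is the difference of these columns (largest deviation 9.2e-14). The authors' fold change is the ratio that this difference gives, and how the authors' p-value and q-value were computed is not given in the sources used here. Only protein-coding genes with at least 0.5 FPKM in a group are in the tables, as checked on the values, and an empty line was found in each. Tables that share a library give it identical values (largest difference 0). The 12028 genes were joined by identifier, and 11582 have values in all 12 libraries.

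Depth is unknown. Ratios of low values between libraries shared a common step in at most 0.919% of 1088 low genes (tolerance 0.001), so whole reads could not be recovered, no counting interval is given, and precision rests on 3 replicates. The labels call the replicates biological without saying what was separate, so p-values measure the spread between these samples.

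From FPKM, log2(FPKM + 1) was tested with limma 3.58.1 (R 4.3.3, data.table version 1.17.8), with an intensity trend, two-sided, on the 6 libraries of a pair, or on all 12 for the interaction. Genes entered where any compared group's mean reached 1 FPKM. Benjamini-Hochberg adjustment ran over all genes tested, and the threshold was 0.05. The procedure was tested on simulated data. Errors of means are SD and those of differences are SE. Promoters were read from RefSeq windows, where 7 of the 9 members matched (8 windows). Figures used Python 3.11.15, pandas 2.3.3, numpy 2.4.6 and matplotlib 3.10.9.

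The members and lists were chosen with earlier results of these data known. Genes named were all 9 members, the 2 nearest patterns to each member, up to 3 genes per list with the smallest adjusted p in ADM against control and in ADM+DHT against ADM, neighbours on the chromosome, and checks of the labels. Epyc, Podnl1 and Tsku were named after their values were seen where the rule does not reach them. Alternatives were pseudocounts of 0.1 and 0.5, no filter, a filter at 5 FPKM, no trend, median ratio scaling, scaling without mitochondrially encoded genes, a fit on all 12 libraries, a replicate block and leaving out each replicate.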

Additional observations from a re-analysis of the deposited data

Results flagged for a closer look

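For 8 of the 9 genes the DHT difference in adipogenic medium departed from that in regular medium, as tested by the interaction in limma, where 25.4% of all genes tested were called. The Podn call ended in 4 of 20 alternatives (adjusted p up to 0.0631). The value, the first difference minus the second, was -1.16 for Prelp, -0.74 for Aspn, -0.60 for Ogn and -0.47 for Omd, which DHT raised in both media. It was 0.56 for Dcn, 0.97 for Lum, 1.32 for Fmod and 1.36 for Podn, which DHT lowered in regular medium. In adipogenic medium Fmod was not tested, and Dcn, Lum and Podn did not pass there. The positive sign for Fmod was fixed by its low level in that medium, so its place among the 8 is no result. Groups of 3 libraries are too small for a test of single outlying libraries, and the spread of the Podn libraries is given with its values.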

How the results depend on the processing

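The number of members called stayed within 1.5 times the reported number in all 110 alternatives run, as did the number of all genes called in 110. For counts as high as 8 of 9 that band is wide. By the authors' q-value below 0.05, 7 members pass in DHT against control and 6 in ADM against control. In ADM+DHT against ADM 4 pass, and against DHT 6, where Bgn has a q-value of 0.0646. Of 969 values of single members, 928 kept direction and side of the threshold, 23 lost and 8 gained a call, and 10 changed sign. The lost calls were those of Podn in DHT against control, ADM+DHT against DHT and the interaction, and of Bgn in ADM+DHT against DHT. No value that changed sign was past the threshold. Under median ratio scaling Prelp in ADM+DHT against DHT became 0.00038 and Podn in ADM against DHT 0.015. With a replicate left out, ADM+DHT against ADM ran from -0.12 to 0.0583 for Lum and from -0.0177 to 0.11 for Dcn, and Podn in ADM+DHT against control ran from -0.0097 to 0.55. In the same way ADM against DHT ran from -0.26 to 0.20 for Podn and from -0.0099 to 0.0656 for Bgn. The cause was not tested. Rescaling moved the median of all genes by at most 0.061 on the log2 scale.

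Replicate numbers did not pair the samples: the correlation of same-numbered deviations ran from -0.14 to 0.14, and 0 to 2 of 6 libraries were closest to their own number. With the replicate block, 7 members were called in ADM against control, 7 in DHT against control, 4 in ADM+DHT against ADM, 8 in ADM+DHT against DHT, 8 in ADM+DHT against control, 7 in ADM against DHT and 8 in the interaction. Over all genes those counts were 6712, 2542, 3033, 4942, 6248, 5999 and 2750. Unknown depth limits what can be said of genes near 1 FPKM, Fmod and Podn among them.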
